A study of Mus musculus with 222 samples.

Results

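The 5 genes described here are the DNA methyltransferase genes Dnmt1, Dnmt3a, Dnmt3b and Dnmt3l and the maintenance cofactor gene Uhrf1, taken by symbol from count tables of 24391 genes in mouse primordial germ cells (PGCs, the embryonic precursors of eggs and sperm). The study deletes Eed, a core subunit of Polycomb repressive complex 2, in PGCs and asks what EED does as these cells differentiate in the gonad. Each group held GFP-positive PGCs sorted from gonads of C57BL/6;129S1/SvlmJ embryos. ECKO embryos are labelled Eed -/- and Control embryos wild type, and both came from OG; Eed fl/fl mothers and BC; Eed fl/+ fathers, so every embryo, Controls included, inherited a floxed allele from its mother. OG and BC are the submitters' abbreviations. From what is known of the study they stand for an Oct4-GFP reporter and a Blimp1-Cre driver, which is active in PGCs from their specification onwards. The bulk groups were E11.5 XX (4 ECKO and 3 Control libraries), E11.5 XY (4 ECKO and 4 Control) and E13.5 XY (3 ECKO and 4 Control), and the number of embryos behind a bulk library is not given. At E12.5 single cells were sequenced from 2 embryos for each sex and genotype.

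DNA methylation of CG dinucleotides is copied to the new strand after each round of replication by DNMT1, the maintenance enzyme, which UHRF1 brings to half-methylated sites. DNMT3A and DNMT3B place methyl groups on unmethylated DNA (de novo methylation), and DNMT3L, which has no catalytic activity of its own, stimulates them and is needed for methylation of the germline. PGCs are known for losing most of their DNA methylation on the way into the gonad, a phase in which UHRF1 is low, and male germ cells regain it later in fetal life. Polycomb repressive complex 2 marks silent genes by methylating histone H3 at lysine 27 and is found mostly at CG-rich promoters.

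The promoters of the genes are shown because they differ in this CG content, with the bases of each CG in capitals. They are the 250 bases before an annotated start in the RefSeq table of build GRCm38.p6, in the direction of the gene, and they carry no measurement of the series. Dnmt3b (one annotated start, chr2:153649199-153649448, plus strand) and the CG-rich start of Uhrf1 (chr17:56304063-56304312, plus strand) belong to the genes that passed the test at E11.5. Dnmt1, the gene of the maintenance enzyme, is also shown by the start with most CG (chr9:20952624-20952873, minus strand). So is Dnmt3l (chr10:78042037-78042286, plus strand), which has the fewest CG of the windows printed.

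Dnmt3b: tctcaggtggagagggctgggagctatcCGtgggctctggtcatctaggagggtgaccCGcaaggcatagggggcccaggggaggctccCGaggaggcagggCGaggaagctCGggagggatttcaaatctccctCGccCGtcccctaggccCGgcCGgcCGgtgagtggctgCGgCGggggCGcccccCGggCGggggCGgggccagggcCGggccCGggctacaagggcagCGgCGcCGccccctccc
Uhrf1: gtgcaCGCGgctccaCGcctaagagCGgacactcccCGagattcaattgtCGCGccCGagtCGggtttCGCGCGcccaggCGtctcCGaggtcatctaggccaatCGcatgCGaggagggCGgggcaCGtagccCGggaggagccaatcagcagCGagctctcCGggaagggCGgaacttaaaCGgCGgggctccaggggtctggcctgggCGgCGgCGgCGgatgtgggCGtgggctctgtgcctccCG
Dnmt1: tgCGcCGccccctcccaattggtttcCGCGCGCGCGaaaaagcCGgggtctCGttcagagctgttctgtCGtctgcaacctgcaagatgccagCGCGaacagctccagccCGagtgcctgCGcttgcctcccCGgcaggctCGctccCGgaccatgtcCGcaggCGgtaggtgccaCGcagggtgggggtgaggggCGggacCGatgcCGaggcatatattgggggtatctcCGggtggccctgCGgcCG
Dnmt3l: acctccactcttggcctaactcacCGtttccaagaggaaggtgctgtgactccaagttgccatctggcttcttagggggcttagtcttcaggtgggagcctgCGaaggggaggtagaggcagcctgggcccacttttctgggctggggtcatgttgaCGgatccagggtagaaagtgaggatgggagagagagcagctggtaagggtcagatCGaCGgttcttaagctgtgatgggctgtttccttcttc

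The Dnmt3b window holds 21 CG, the Uhrf1 window 30, the Dnmt1 window 26 and the Dnmt3l window 5, where the median over 32851 RefSeq promoter windows of the same length is 6. A lower CG number than that of Uhrf1 is found in 94.1% of those windows, and the same share is 90.4% for Dnmt1, 83.7% for Dnmt3b and 44.4% for Dnmt3l. The 2 overlapping windows of Dnmt3a on chromosome 12, not printed, hold 38 and 40 CG, more than 98.1% and 98.7% of all windows. Further windows, not printed, hold 15 CG for Dnmt3a, 7 and 2 for Dnmt1, 10 for Uhrf1, and 4 and 3 for Dnmt3l. The motif TTTCGCGC, an E2F-type sequence common in genes of DNA replication, was searched on both strands. It is found once in the printed Dnmt1 window and once in the printed Uhrf1 window, and in 0.256% of all windows. It is in none of the other 10 windows of the 5 genes, and 2 related sequences, TTTGGCGC and TTTCCCGC, are in none of the 12. Several starts are annotated for Dnmt1, Dnmt3a, Dnmt3l and Uhrf1, and counts per gene symbol cannot tell transcripts from different starts apart.

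Bulk libraries held 415291 to 14974853 counts, the E11.5 XX set being the shallowest with 415291 to 7559310, and p-values measure the spread between libraries as labelled. Of 192 single cells, 127 were kept, with 13 to 22 per embryo and a median of 1.31e+06 counts. One XX cell is titled ECKO and labelled wild type, and the table does not show which ECKO column it is, so it could not be left out. Eed, the targeted gene, was lower in every ECKO library than in every Control of the same sex and stage, with ECKO over Control ratios of mean CPM (counts scaled to a common library size) between 0.0989 at E13.5 XY and 0.327 at E11.5 XY. All 12 germ cell markers listed were detected in every group, so the libraries hold germ cells. Interstitial cell markers were highest in E11.5 XX ECKO 4 (1216 CPM summed over 12 genes) and E11.5 XY ECKO 4 (437 CPM), against 6.62 to 163 CPM in the other E11.5 libraries. Supporting cell markers summed to 43.8 to 188 CPM in E11.5 XX ECKO, above all E11.5 XX Controls at 10.4 to 38.9 CPM. In E11.5 XY they summed to 48.7 to 105 CPM in ECKO and 12.9 to 62.9 CPM in Controls. At E13.5 they summed to 32.8 to 62.0 CPM in ECKO and 7.81 to 215 CPM in Controls. The summed germ cell markers were 2574, 1713 and 1723 CPM in the E13.5 ECKO libraries, against 2970 to 3750 CPM in E13.5 Controls. The markers did not move together. Dppa3 had 469 to 983 CPM in E13.5 ECKO, against 1110 to 1691 CPM in Controls, and Kit 35.8 to 255 CPM, against 326 to 662 CPM. Ddx4 was higher, at 338 to 496 CPM in E13.5 ECKO and 266 to 321 CPM in Controls, as was Nanos3, at 10.7 to 14.2 CPM and 0 to 2.24 CPM. Endothelial markers, of which Pecam1 is also a germ cell gene, summed to 23.5 to 76.3 CPM in E13.5 ECKO and 150 to 221 CPM in E13.5 Controls, and blood cell markers to 205 CPM at most in ECKO and 337 CPM at most in Control libraries. The part of these differences in the results was not tested, and in bulk RNA fewer cells of a type and less RNA per cell cannot be told apart.

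In E11.5 XY PGCs, the comparison of ECKO with Control asks what loss of EED does in male germ cells when the gonad starts to differentiate. Dnmt3b and Uhrf1 rose in ECKO, with mean CPM 5.62 and 2.61 times those of Controls, while Dnmt1 and Dnmt3a did not pass the test. Uhrf1 had 41.7, 64.9, 57.8 and 45.8 CPM in ECKO libraries 1 to 4, against 23.04, 23.3, 23.6 and 10.6 CPM in Control libraries 1 to 4. Every ECKO library lay above every Control. The share of all genes that separate in this way was not computed, so separation of groups is a description here and below. The log2 fold change was 1.38 (SE 0.30, adjusted p = 0.0261 by edgeR's quasi-likelihood test over all genes).

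Dnmt3b had 5.31, 27.6, 18.8 and 47.1 CPM in ECKO libraries 1 to 4 and 8.04, 4.53, 1.74 and 3.26 CPM in Control libraries 1 to 4. ECKO 1 lay within the Control range, so the groups overlap, and the highest value was in ECKO 4, the library with many interstitial markers. The log2 fold change was 2.50 (SE 0.62, adjusted p = 0.0452), and without ECKO 4 it was 1.98 (adjusted p = 0.151). Dnmt3a had 208, 190, 189 and 201 CPM in ECKO, against 150, 133, 133 and 150 CPM in Controls. The Dnmt3a groups do not overlap, and the log2 fold change of 0.48 (SE 0.14) missed the threshold (adjusted p = 0.0854), while DESeq2 called it (adjusted p = 0.0123). Dnmt1 averaged 504 ± 51.1 CPM in ECKO and 548 ± 104 CPM in Controls (SD, n = 4 each), which is -0.12 on the log2 scale (SE 0.15, adjusted p = 0.746). Not a single Dnmt3l count was found in the 8 libraries.

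Of the 4 genes that could be tested in E11.5 XY, 2 passed, both higher in ECKO, where 2.13% of all 12497 genes tested passed in either direction. The Uhrf1 call was lost without Control 2 (adjusted p = 0.0648), Control 4 (0.0764), ECKO 2 (0.0823) or ECKO 3 (0.0530). That of Dnmt3b was lost without Control 2 (0.121), Control 3 (0.114), Control 4 (0.138), ECKO 2 (0.108), ECKO 3 (0.0647) or ECKO 4, while the log2 fold changes ranged from 1.18 to 1.49 for Uhrf1 and from 1.98 to 2.97 for Dnmt3b.

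**Figure D1:**
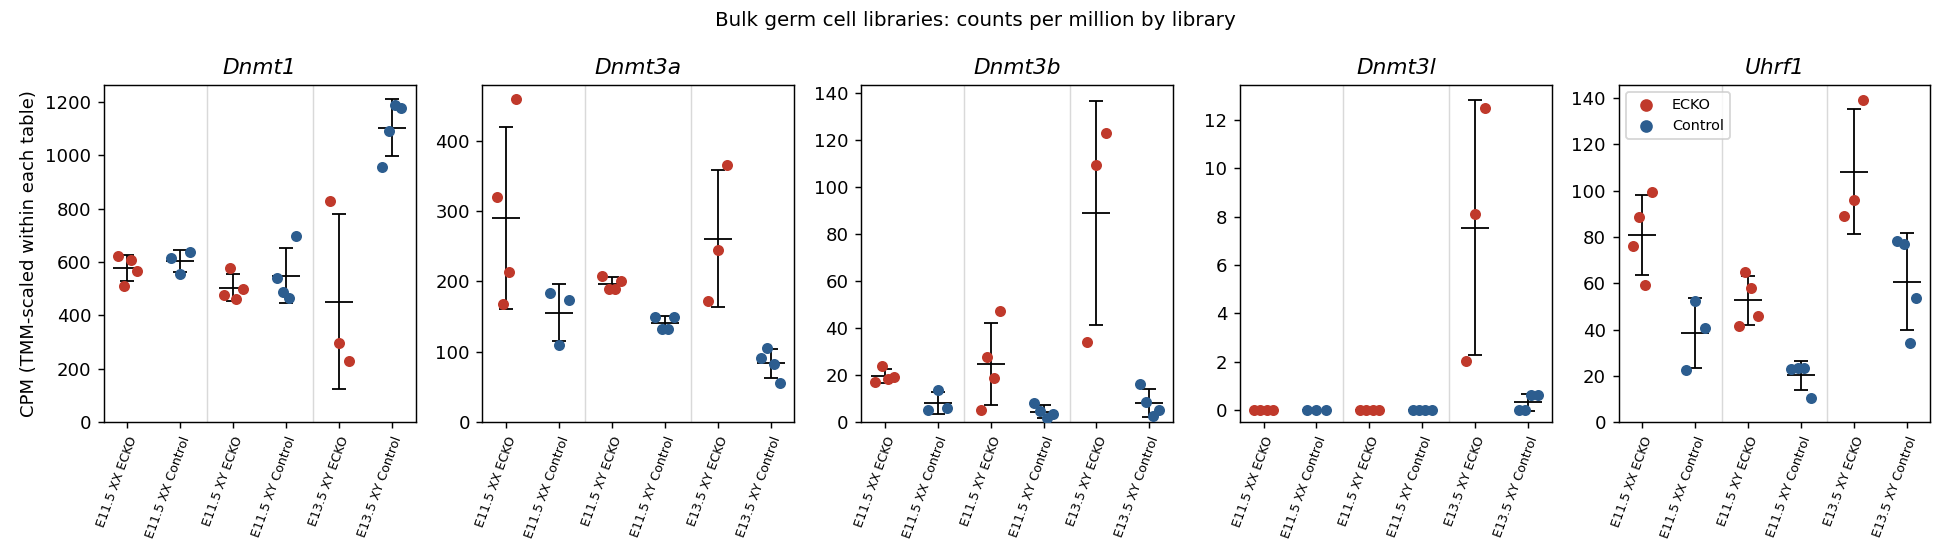
CPM of the 5 genes in each bulk library (1 point per library, black bar and whiskers for mean and SD of the group, ECKO in red and left of Control in blue), on linear axes that differ between genes. Uhrf1 in ECKO lies above Control in all 3 pairs, and the share of all genes that do so was not computed. At E13.5 the ECKO libraries spread widely, with Dnmt1 from 228 to 828 CPM and Dnmt3b from 34.2 to 123 CPM.

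In E11.5 XX PGCs the same genes were higher in ECKO by mean, yet the test called none of the 4 that could be tested. Uhrf1 had 75.9, 88.5, 59.3 and 99.4 CPM in ECKO libraries 1 to 4, against 22.7, 52.5 and 40.5 CPM in Control libraries 1 to 3. All ECKO values exceeded all Control values, and the log2 fold change was 1.01 (SE 0.33, adjusted p = 0.211). Dnmt3b had 16.99, 23.8, 18.2 and 19.2 CPM in ECKO and 5.03, 13.6 and 6.13 CPM in Controls, again with no overlap (log2 fold change 1.18, SE 0.57, adjusted p = 0.381). Dnmt3a had 320, 168, 214 and 459 CPM in ECKO, against 184, 109 and 173 CPM in Controls. Its groups overlap, and the highest value was in ECKO 4, the library with 1216 CPM of interstitial markers. The Dnmt3a log2 fold change was 0.92 (SE 0.33, adjusted p = 0.241), and 0.62 (adjusted p = 0.403) without that library. Dnmt1 averaged 577 ± 50.004 CPM in ECKO (n = 4) and 603 ± 42.2 CPM in Controls (SD, n = 3). Of all 11058 genes, 0.172% passed in this shallow set. At an unadjusted p under 0.05, 2 of the 4 genes (Dnmt3a and Uhrf1) and 13.9% of all genes passed, and DESeq2 called 0 of the 4.

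The difference between the ECKO effects in XX and XY at E11.5 was tested with an interaction term, and 0 of the 4 genes passed it, at an adjusted or an unadjusted p under 0.05 or with DESeq2. Of all 14185 genes, 0% passed at an adjusted and 5.27% at an unadjusted p under 0.05. The XX minus XY difference of the log2 fold changes was -0.36 (SE 0.44) for Uhrf1, -1.28 (SE 0.86) for Dnmt3b and 0.46 (SE 0.34) for Dnmt3a. Among Controls, Uhrf1 was higher in XX than in XY by mean, 36.7 ± 14.5 CPM (n = 3) against 19.1 ± 5.95 CPM (SD, n = 4) when all 22 bulk libraries were scaled together. That difference of 1.01 on the log2 scale (SE 0.33) did not pass (adjusted p = 0.275), nor did any other of the 4 genes, and sex and table cannot be told apart. The share of all genes passing was 0.296%. At an unadjusted p under 0.05, 1 of the 4 genes (Uhrf1) and 10.4% of all genes passed, and DESeq2 called 0 of the 4.

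In E13.5 XY PGCs, when male germ cells are entering cell cycle arrest, the de novo genes Dnmt3a and Dnmt3b rose in ECKO, with mean CPM 3.12 and 10.98 times those of Controls, and Dnmt1 was lower by mean without passing the test. Dnmt3b had 34.2, 109 and 123 CPM in ECKO libraries 1 to 3, against 16.1, 8.62, 2.57 and 5.07 CPM in Control libraries 1 to 4. The lowest ECKO library stood above the highest Control, and the log2 fold change was 3.45 (SE 0.65, adjusted p = 0.0149). Dnmt3a had 173, 245 and 365 CPM in ECKO and 91.0, 105, 82.7 and 55.8 CPM in Controls. The Dnmt3a groups did not overlap either, and its log2 fold change was 1.64 (SE 0.35, adjusted p = 0.0239).

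Dnmt3l, the cofactor of de novo methylation, had 2.03, 8.13 and 12.49 CPM in ECKO libraries 1 to 3, from 17, 82 and 154 counts. The 4 Controls had 0, 0, 0.612 and 0.634 CPM, from 8 counts in all. Each ECKO library was above each Control, and the pooled CPM was 42.8 times that of Controls, yet the log2 fold change of 4.65 (SE 1.54) missed the threshold (adjusted p = 0.0987). With DESeq2 its adjusted p was 0.0122.

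Dnmt1 had 828, 297.99 and 228 CPM in ECKO, against 956, 1091, 1187 and 1176 CPM in Controls. ECKO 2 and 3 were far below the Controls and ECKO 1 just below them, and the log2 fold change of -1.29 (SE 0.43) did not pass (adjusted p = 0.102). DESeq2 gave -1.23 (adjusted p = 0.0326). Uhrf1 had 89.2, 96.1 and 139 CPM in ECKO, above all 4 Controls at 78.2, 77.0, 34.0 and 53.6 CPM. Its log2 fold change of 0.83 (SE 0.38) did not pass (adjusted p = 0.215).

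Of the 5 genes tested at E13.5, 2 passed, both higher in ECKO, where 4.90% of all 12336 genes passed in either direction. ECKO 1 was the library nearest to the Controls in each of the 5 genes, although its Eed level was the lowest of the 3 (2.98 CPM, against 12.7 and 10.4 CPM in ECKO 2 and 3). Without ECKO 1, 4 of the 5 genes passed, Dnmt1 at -2.10 (adjusted p = 0.00209), Dnmt3a at 1.83 (0.00521), Dnmt3b at 3.79 (0.00432) and Dnmt3l at 5.08 (0.0450), and 2141 genes in all in place of 604. The Dnmt3b call was lost without Control 4 (adjusted p = 0.0632), ECKO 2 (0.0644) or ECKO 3 (0.0683). That of Dnmt3a was lost without Control 1 (0.0656), Control 4 (0.0733), ECKO 2 (0.0766) or ECKO 3 (0.111).

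**Figure D2:**
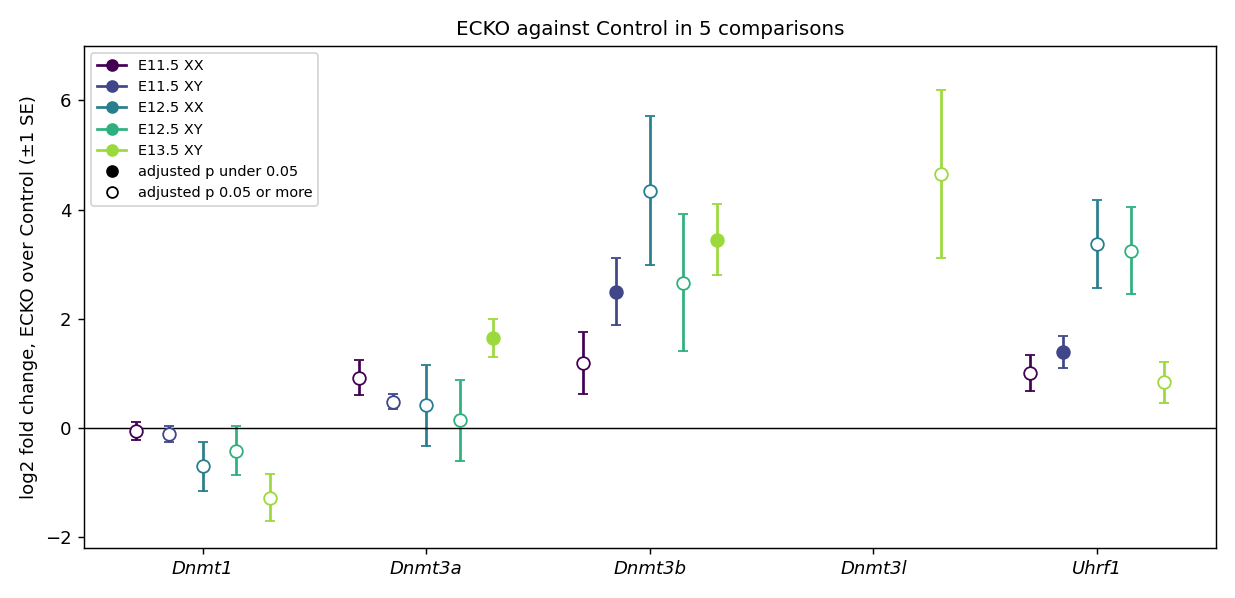
Log2 fold change of ECKO over Control (vertical axis, whiskers of 1 SE) for the 5 genes in 5 comparisons, with filled points where the adjusted p of edgeR was under 0.05. Filled points are Dnmt3b and Uhrf1 at E11.5 XY and Dnmt3a and Dnmt3b at E13.5 XY. Dnmt3l is drawn for E13.5 alone, since in every other comparison at least 1 group had no count.

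The makeup of the methyltransferase counts is given without a test. Of the counts assigned to the 4 Dnmt genes, Dnmt1 took 79.8%, 45.1% and 31.3% in E13.5 XY ECKO libraries 1 to 3, against 89.9% to 95.0% in the 4 Controls. Dnmt3a took 16.7%, 37.1% and 50.1% in ECKO and 4.51% to 8.75% in Controls. Dnmt3b took 3.30%, 16.5% and 16.9% in ECKO, against 0.202% to 1.51% in Controls. At E11.5 the Dnmt1 share was 66.8% to 72.6% in XY ECKO, against 77.4% to 82.0% in XY Controls, and 54.2% to 72.7% in XX ECKO, against 76.5% to 81.9% in XX Controls. At E12.5 it was 68.5% and 68.2% in XX ECKO embryos, against 88.3% and 89.8% in XX Controls, and 80.2% and 65.3% in XY ECKO, against 85.6% and 90.8% in XY Controls. Dnmt3b took 10.6% to 17.004% in the 4 ECKO embryos and 0.033% to 3.29% in the 4 Control embryos of that stage. These shares are of counts, not corrected for transcript length, so they are read between libraries and not between genes.

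**Figure D3:**
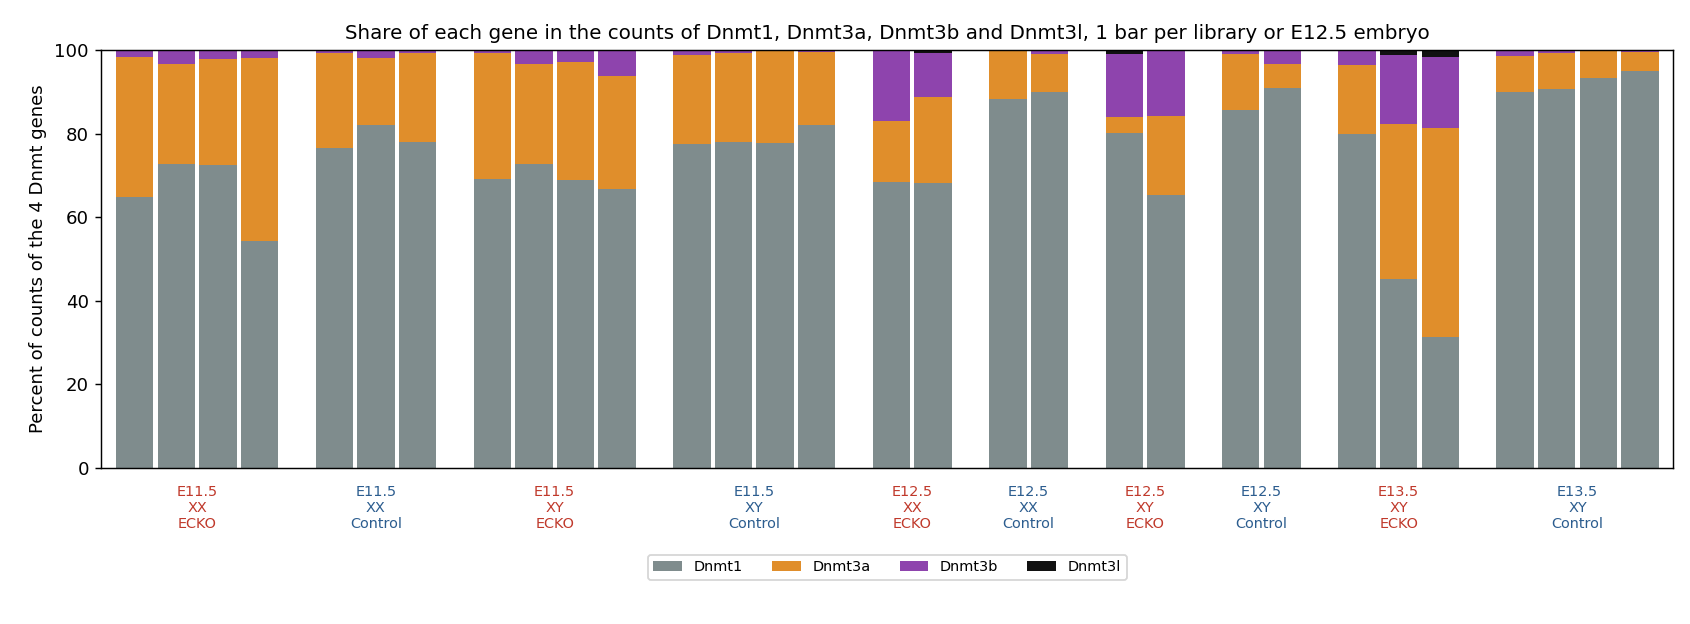
Percent of the counts of Dnmt1, Dnmt3a, Dnmt3b and Dnmt3l that each gene took (vertical axis from 0 to 100), 1 bar per bulk library or E12.5 embryo, with ECKO groups left of their Controls. The Dnmt1 share reaches from 31.3% to 79.8% in E13.5 XY ECKO and from 89.9% to 95.0% in E13.5 XY Control.

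Between stages, Control XY germ cells had more Dnmt1 and more Uhrf1 at E13.5 than at E11.5, and the test called both. With all 22 bulk libraries scaled together, Dnmt1 averaged 1226 ± 113 CPM in E13.5 Controls and 520 ± 101.6 CPM in E11.5 Controls (SD, n = 4 each). The groups do not overlap, and the log2 fold change was 1.14 (SE 0.28, adjusted p = 0.00372). Uhrf1 averaged 67.7 ± 24.4 CPM in E13.5 Controls and 19.1 ± 5.95 CPM in E11.5 Controls (log2 fold change 1.74, SE 0.34, adjusted p = 0.000627). Dnmt3a was lower by mean in the later Controls, 93.5 ± 25.3 CPM against 134 ± 9.52 CPM, and missed the threshold (log2 fold change -0.61, SE 0.25, adjusted p = 0.0671). It passed without E13.5 Control 2 (0.0469), E13.5 ECKO 1 (0.0274) or E13.5 ECKO 3 (0.0442), the ECKO libraries entering through the shared estimate of the spread. Dnmt3b averaged 9.02 ± 6.56 CPM in E13.5 Controls and 4.16 ± 2.52 CPM in E11.5 Controls (adjusted p = 0.230). The share of all 14447 genes called in Controls between stages was 31.5%, so 2 of 5 is near what all genes show. The stages come from separate tables, so stage and table cannot be told apart.

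In ECKO XY cells Dnmt3b, Dnmt3l and Uhrf1 were called between the same stages. Dnmt3b averaged 101 ± 56.3 CPM at E13.5 (n = 3) and 23.01 ± 16.2 CPM at E11.5 (SD, n = 4), which is 2.03 on the log2 scale (SE 0.68, adjusted p = 0.0328). This call was lost without ECKO 1 (adjusted p = 0.0729), 2 (0.0611) or 3 (0.0822) of E11.5, or ECKO 2 (0.0980) or 3 (0.114) of E13.5. Uhrf1 averaged 122 ± 34.5 CPM at E13.5 and 49.1 ± 9.68 CPM at E11.5 in ECKO (log2 fold change 1.21, SE 0.36, adjusted p = 0.0175), and was not called without E13.5 ECKO 3 (0.0896). Dnmt3l was called too (adjusted p = 0.00496), its pooled level at E13.5 being at least 126-fold higher than at E11.5 when the absent counts are set to 3 over the E11.5 group. In Controls the same ratio was at least 3.54-fold, from 8 counts, and was not called (adjusted p = 0.0580). Dnmt1 averaged 495 ± 338 CPM in E13.5 ECKO and 471 ± 41.9 CPM in E11.5 ECKO, and Dnmt3a 295 ± 119 CPM and 184 ± 10.1 CPM (adjusted p = 0.956 and 0.122). Without E13.5 ECKO 1 both were called as well, Dnmt1 at -0.75 (adjusted p = 0.0137) and Dnmt3a at 0.82 (adjusted p = 0.0214). Of all genes, 23.7% were called between stages in ECKO, against 3 of these 5.

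Whether the ECKO effect differed between the stages was tested with an interaction term, and 0 of the 5 genes passed, where 1.20% of all genes did. For Dnmt1 the E13.5 minus E11.5 difference of the log2 fold changes was -1.17 (SE 0.41, adjusted p = 0.144), and for Dnmt3a it was 1.19 (SE 0.37, adjusted p = 0.101). Both passed at an unadjusted p under 0.05, as did 17.6% of all genes. DESeq2 called Dnmt3a (adjusted p = 0.0264), and without E13.5 ECKO 1 edgeR called both, Dnmt1 at -1.88 (adjusted p = 0.000201) and Dnmt3a at 1.43 (adjusted p = 0.00767). For Dnmt3b the difference was 0.99 (SE 0.93) and for Uhrf1 -0.53 (SE 0.49), with adjusted p of 0.617 and 0.616.

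Across the 6 bulk groups on the common scale, the order of mean levels differed by gene. Dnmt1 was highest in E13.5 XY Controls, at 1061 to 1316 CPM, above every library of the other 5 groups, among which each group overlaps the next one down. Dnmt3a was highest in E13.5 XY ECKO, E11.5 XX ECKO and E11.5 XY ECKO, in that order, and lowest in E13.5 XY Controls. Its 3 ECKO groups overlap from one to the next. Dnmt3b also had the 3 ECKO groups first, with E13.5 XY ECKO at 36.5 to 142 CPM and every neighbour in the order overlapping the next. Uhrf1 was highest in E13.5 XY ECKO, at 95.2 to 161 CPM, above the next group, E11.5 XX ECKO, at 56.7 to 93.9 CPM. All later neighbours in its order overlap, down to E11.5 XY Controls at 10.1 to 22.3 CPM.

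At E12.5, in single cells, Uhrf1 and Dnmt3b were higher in ECKO embryos of both sexes and edgeR called neither. Summed over the cells of an embryo, Uhrf1 had 81.9 and 158 CPM in the 2 XX ECKO embryos, against 3.31 and 20.004 CPM in the 2 XX Control embryos. In XY it had 131 and 120 CPM in ECKO embryos and 10.2 and 16.2 CPM in Control embryos. ECKO embryos were above Controls in both sexes, with log2 fold changes of 3.37 (SE 0.80, adjusted p = 0.154) in XX and 3.25 (SE 0.80, adjusted p = 0.503) in XY. Dnmt3b had 45.9 and 20.004 CPM in XX ECKO, against 0.0683 and 3.16 CPM in XX Controls. In XY it had 64.6 and 65.9 CPM in ECKO, against 3.91 and 16.7 CPM in Controls. The Dnmt3b groups do not overlap in either sex (log2 fold change 4.35, SE 1.36, adjusted p = 0.258 in XX and 2.66, SE 1.26, adjusted p = 0.768 in XY). With 2 embryos a group, such separation of Uhrf1 and Dnmt3b is not a test and can easily arise by chance. The share of all genes that separate in this way was not computed, at E12.5 or in the bulk groups.

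With 2 embryos a group, edgeR called 0 of the 5 genes in XX and 0 in XY, where it called 0.0215% and 0.00717% of all 13956 genes. At an unadjusted p under 0.05, 2 of 5 passed in XX (Dnmt3b and Uhrf1), against 12.3% of all genes, and 1 of 5 in XY (Uhrf1), against 6.31% of all genes. DESeq2 called the same 2 genes in XX (adjusted p = 0.00542 for Dnmt3b and 0.000358 for Uhrf1) and the same gene in XY (adjusted p = 0.00236). Over all genes DESeq2 called 910 in XX and 327 in XY, against 3 and 1 with edgeR. With edgeR, the XX calls appeared without XX Control 2 or XY Control 1, and for Uhrf1 without XY Control 2. Without XX Control 2 the log2 fold changes in XX were 8.81 for Dnmt3b and 5.19 for Uhrf1. They rest on XX Control 1 alone, with 2 Dnmt3b counts and 97 Uhrf1 counts. The XY call of Uhrf1 appeared without XX Control 1 or XX Control 2. Each of these fits leaves 1 embryo in a group. Dnmt1 had 185 and 129 CPM in XX ECKO and 183 and 330 CPM in XX Controls, and 345 and 278.4 CPM in XY ECKO and 370 and 463 CPM in XY Controls. Dnmt3a had 39.0 and 38.6 CPM in XX ECKO, 24.3 and 34.1 CPM in XX Controls. In XY, its levels were 16.04 and 80.8 CPM for ECKO and 58.3 and 29.97 CPM for Controls. Neither gene passed at an unadjusted p under 0.05. By the interaction term 0 of the 5 genes passed, at an adjusted or unadjusted p under 0.05 or with DESeq2, where 0% of all genes passed at an adjusted and 4.88% at an unadjusted p. This does not show that the effects were alike in the sexes, since the XX minus XY difference of the log2 fold changes was 1.69 (SE 1.69) for Dnmt3b and 0.12 (SE 1.03) for Uhrf1, and that of Uhrf1 ran from -0.66 to 1.92 with an embryo left out.

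At E12.5 supporting cell markers were also higher in the ECKO embryos, the 12 on the list summing to 274 and 466 CPM in XX ECKO and 237 and 179 CPM in XY ECKO, against 119 and 19.2 CPM in XX Controls and 137 and 15.8 CPM in XY Controls. Most of each sum was Krt18, a keratin gene, at 243 to 326 CPM in XX ECKO and 140 to 165 CPM in XY ECKO, against 12.98 to 117 CPM in XX Controls and 15.8 to 105 CPM in XY Controls. In XY ECKO the markers Amh, Nr5a1 and Foxl2 were at 0, and Sox9 and Wt1 did not exceed 0.884 CPM. Other markers of the list were higher in ECKO. Krt19 had 9.48 to 85.3 CPM in XY ECKO and 12.1 to 12.9 CPM in XX ECKO. Fst had 1.37 to 10.03 CPM in XY ECKO and 9.14 to 13.6 CPM in XX ECKO. Both were at 0 in all Control embryos. Wnt4 went the other way in XY, at 0 to 0.486 CPM in ECKO and 0 to 31.1 CPM in Controls. In XX ECKO 2, Wt1 reached 52.1 CPM and Nr5a1 24.7 CPM, and Amh was at 0. Interstitial cell markers summed to 15.2 and 294 CPM in XX ECKO and 0.177 and 8.28 CPM in XY ECKO, against 0 and 1.74 CPM in XX Controls and 0 and 0.764 CPM in XY Controls. XX ECKO 2, with the highest interstitial sum, also had the highest Uhrf1, and without it the XX log2 fold change was 2.81 for Uhrf1 (adjusted p = 0.223) and 4.82 for Dnmt3b (adjusted p = 0.186). Germ cell markers summed to 1931 and 1199 CPM in XX ECKO and 1886 and 2426 CPM in XY ECKO, against 3251 and 3121 CPM in XX Controls and 3159 and 2704 CPM in XY Controls. Dnd1 took a large part of these sums, at 109 to 538 CPM in XX ECKO, against 1290 to 1314 CPM in XX Controls. In XY it had 361 to 819 CPM in ECKO and 1000 to 1124 CPM in Controls. Not every germ cell marker was lower in ECKO. Nanos3 had 109 to 208 CPM in XY ECKO, against 53.9 to 69.2 CPM in XY Controls. Dazl overlapped in XX, at 280 to 443 CPM in ECKO and 146 to 386 CPM in Controls. The part of these markers in the Uhrf1 and Dnmt3b levels was not tested.

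The share of cells with a gene at 10 CPM or more shows how the sums were made up. Uhrf1 was present in 9 of 13 (69.2%, exact 95% interval 38.6 to 90.9) and 11 of 13 (84.6%, 54.5 to 98.1) cells of the XX ECKO embryos, against 2 of 14 (14.3%, 1.78 to 42.8) and 4 of 16 (25%, 7.27 to 52.4) in XX Controls. In XY it was present in 15 of 18 (83.3%, 58.6 to 96.4) and 14 of 18 (77.8%, 52.4 to 93.6) ECKO cells and in 3 of 13 (23.1%, 5.04 to 53.8) and 10 of 22 (45.5%, 24.4 to 67.8) Control cells. Each ECKO embryo thus had a higher share than each Control embryo. Among the cells with the gene, the median level was also higher, 89.5 to 197 CPM in the 4 ECKO embryos and 24.1 to 64.1 CPM in the 4 Control embryos.

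In XX, Dnmt3b reached 10 CPM in 8 of 13 (61.5%) and 7 of 13 (53.8%) cells of the ECKO embryos. Of XX Control cells it did so in 1 of 16 (6.25%) and 0 of 14, where the limit set by no cell is 21.4%. In XY it was present in 10 of 18 and 13 of 18 ECKO cells, against 2 of 13 and 5 of 22 Control cells. Dnmt1 was present in nearly all cells, 60 of 62 in ECKO and 61 of 65 in Controls. Dnmt3a was present in 53.8% to 69.2% of cells in XX ECKO embryos, against 28.6% and 62.5% for XX Controls. The XY shares were 38.9% and 77.8% for ECKO and 46.2% and 54.5% for Controls, so its shares overlap in both sexes. When each cell was thinned to 50000 counts, Uhrf1 had a count in 69.2% to 77.8% of the cells of the ECKO embryos and 7.14% to 36.4% of those of the Control embryos, and Dnmt3b in 44.4% to 66.7% and 0% to 18.2%. Intervals and limits cover the counting of cells in 1 embryo and not the spread between embryos, and cells of an embryo are not replicates.

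**Figure D4:**
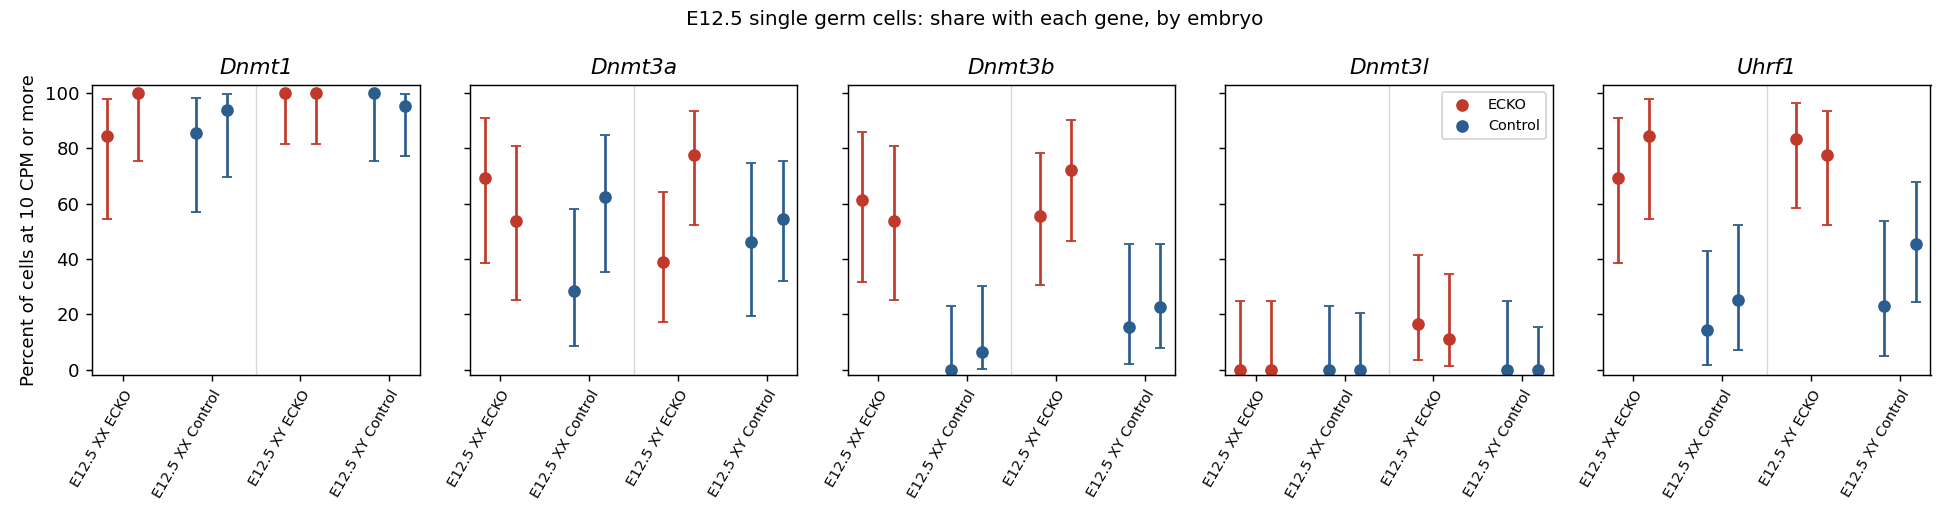
Percent of E12.5 cells with each gene at 10 CPM or more (vertical axis, 0 to 100), 1 point per embryo with its exact 95% interval, ECKO in red and left of Control in blue. Uhrf1 lies at 69.2% to 84.6% in ECKO embryos and 14.3% to 45.5% in Control embryos, and Dnmt1 is at 84.6% or more in every embryo.

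Dnmt3l was present in 3 of 18 and 2 of 18 cells of the XY ECKO embryos and in 0 of 26 XX ECKO cells, 1 of which had it at 7.94 CPM. No count was found in any of 65 Control cells pooled over 4 embryos. For counting error alone, 3 cells of 65, that allows up to 4.62% of cells with a count, which is not a limit on cells that express the gene. The summed level was at least 31.1-fold higher in XY ECKO and at least 10.3-fold higher in XX ECKO than in Controls of the same sex, with a floor of 3 counts over the group. In XX that rests on 22 counts of 1 cell. The 5 XY ECKO cells with Dnmt3l at 10 CPM or more had 10.7 to 64.5 CPM of it. All of them had Dnmt1 at 190 to 523 CPM, and 4 of the 5 had Dnmt3b at 16.2 to 246 CPM. Of all cells of the XY ECKO embryos, Dnmt3b was present in 10 of 18 and 13 of 18.

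Genes were also found together in single cells. Dnmt3b and Uhrf1 were both present in 30 of 62 ECKO cells (48.4%), against 1 of 65 Control cells (1.54%). Dnmt3a and Dnmt3b were both present in 23 of 62 ECKO cells and 4 of 65 Control cells. All of Dnmt1, Dnmt3a, Dnmt3b and Uhrf1 were present in 18 ECKO cells and in 0 Control cells, where the same limit of 4.62% holds. Conversely, 2 ECKO cells and 21 Control cells had none of Dnmt3a, Dnmt3b and Uhrf1. These counts pool the 4 embryos of a genotype and are a description. Singly, Dnmt3b was present in 61.3% and Uhrf1 in 79.0% of ECKO cells, against 12.3% and 29.2% of Control cells. Within the ECKO embryos, Spearman's rho of Uhrf1 with Dnmt3b was 0.022 and 0.304 in XX and -0.249 and -0.108 in XY. Whether the genes occur together beyond their single shares was not tested. Within XX ECKO, Uhrf1 was present in 12 of 14 cells with Eed under 10 CPM and in 8 of 12 cells with Eed at 10 CPM or more, and Dnmt3b in 6 and 9. Within XY ECKO, Uhrf1 was present in 15 of 17 and 14 of 19 such cells, and Dnmt3b in 10 and 13, so cells with Eed counts were not free of either gene.

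**Figure D5:**
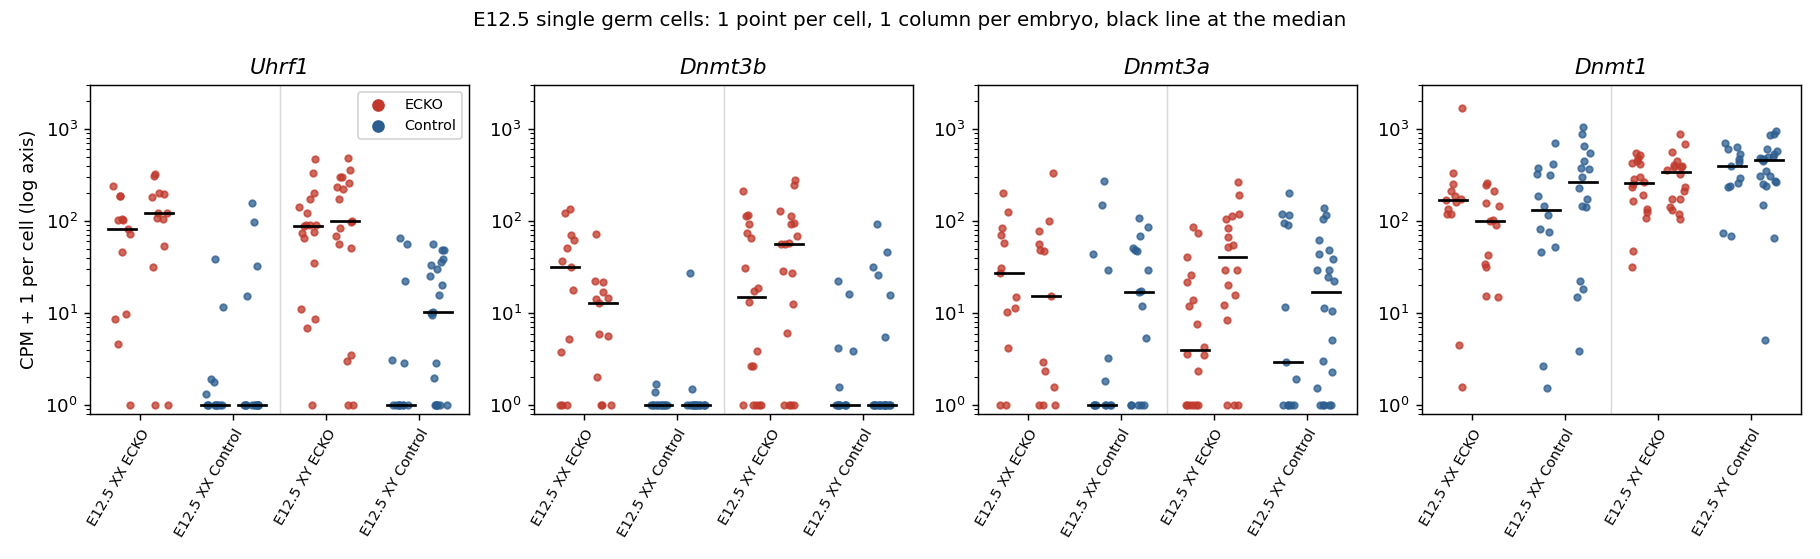
CPM plus 1 in each E12.5 cell on a log axis, for Uhrf1, Dnmt3b, Dnmt3a and Dnmt1 (1 point per cell, 1 column per embryo, black line at the embryo's median, ECKO left of Control). The median of Uhrf1 is 80.1 to 121 CPM in the 4 ECKO embryos and 0 to 9.22 CPM in the 4 Control embryos, while Dnmt1 medians overlap in range, 99.2 to 338 CPM in ECKO and 130 to 456 CPM in Controls.

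Other genes of DNA methylation were followed as lists. At E13.5 XY, 4.90% of all 12336 genes tested passed in either direction. Of 12 maintenance cofactor genes, 0 passed (median log2 fold change -0.54, against 0.049 over all genes tested). The list holds partners of DNMT1 and UHRF1 at the replication fork. Of 15 de novo methylation and histone H3 lysine 9 partners, Morc1, a repressor of transposons in the male germline, rose (2.36, adjusted p = 0.0245) and Atrx, a chromatin remodeller, fell (-1.66, adjusted p = 0.0418). In the demethylation and base excision repair list, Tet3, which oxidises 5-methylcytosine, rose (4.52, adjusted p = 0.0170), while 5 of the 15 tested had a positive log2 fold change and the median was -0.61. The summed level of that list was lower, at 2633, 1145 and 1128 CPM in ECKO libraries 1 to 3, against 3934 to 5329 CPM in Controls. Of 6 methyl-CpG binding proteins tested, Zbtb38 fell (-1.62, adjusted p = 0.0285).

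Germline genes known to be repressed by promoter methylation outside the germline made up the list with most calls at E13.5 XY. Of 18, 8 rose in ECKO and none fell, with a median log2 fold change of 1.71, where 4.90% of all genes passed in either direction. The smallest adjusted p were those of Taf7l (6.79, adjusted p = 0.00124), a germ cell form of a general transcription factor subunit, Tex101 (7.06, 0.00328), a surface protein of male germ cells, and Tdrd1 (3.23, 0.00535), a Tudor protein of the piRNA pathway. Genes of DNA replication, whose copying step DNMT1 follows, had 7 of 26 members lower and none higher, with a median of -1.18. They include Rrm2, a subunit of ribonucleotide reductase (-2.67, 0.00856), Pola1, of DNA polymerase alpha (-1.82, 0.0285), and Mcm2, of the replicative helicase (-1.22, 0.0386). In 12 mitosis genes, Plk1 fell (-1.75, adjusted p = 0.0414) and all 12 had negative log2 fold changes. Summed replication genes came to 3425, 2108 and 1700 CPM in ECKO libraries 1 to 3, against 2993 to 3930 CPM in Controls, so the 2 ECKO libraries with the lowest Dnmt1 were also those with the lowest replication sums. Their part in the Dnmt1 level was not tested.

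At E11.5 the lists held few calls, where 2.13% of all genes passed in XY and 0.172% in XX. In XY, Trim28, the co-repressor that recruits histone H3 lysine 9 methylation (-0.54, adjusted p = 0.0446), Atrx (-0.53, 0.0499), Tet1, a TET enzyme expressed in PGCs (-0.68, 0.0319), and the replication gene Mcm10 (-0.74, 0.0427) fell, and Tdrd1 rose (2.26, 0.0127). None of the 12 maintenance cofactor genes passed. The median log2 fold change of the replication list was -0.35 there, against 0.0016 over all genes. In XX the 1 call on any list was Tdrd1, which rose (3.86, adjusted p = 0.00478). At E12.5 edgeR called no member of a list in either sex, where it called 0.0215% of all genes in XX and 0.00717% in XY. The median log2 fold change of the methylation-sensitive germline list was 0.86 in XX and 0.75 in XY, against 0.13 and 0.10 over all genes. The methyl-CpG binding proteins had medians of -0.42 in XX and -1.81 in XY over 6 genes tested. Their summed level was 862 and 525 CPM in XX ECKO, against 1354 and 1508 CPM in XX Controls, and 696 and 854 CPM in XY ECKO, against 1372 and 1823 CPM in XY Controls.

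Between stages, members of the lists passed in both genotypes, where 23.7% of all genes passed in ECKO and 31.5% in Controls. The methylation-sensitive germline genes had 15 of 18 higher at E13.5 than at E11.5 in ECKO, and 11 higher and 2 lower in Controls. Mael, a gene of the piRNA pathway, had the smallest adjusted p of the list in both, with log2 fold changes of 4.21 in ECKO and 3.26 in Controls. The replication genes had 16 of 26 lower and 1 higher in ECKO, and 6 lower and 3 higher in Controls, Rrm2 having the smallest adjusted p in both (-3.64 in ECKO and -1.49 in Controls). Among maintenance cofactors, 1 was higher and 2 were lower in ECKO and 3 higher and 2 lower in Controls, of 12 tested, which is near the shares over all genes. Dmap1, a DNMT1-binding protein gene (-1.85 and -2.28), and 2810417H13Rik, the gene of the PCNA-associated factor (-2.30 and -2.40), fell in both, and Cdca7l rose in both (1.16 and 1.57). By the interaction term, 3 of the 18 germline genes (Tex101, Taf7l and Mov10l1) had a higher ECKO effect at E13.5 and 3 of the 26 replication genes (Rrm2, Pola1 and Mcm2) a lower one, where 1.20% of all genes passed.

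Over the 22 bulk libraries, the 3 genes with the pattern most like each of the 5 were found by Pearson's r of log2 CPM among 15094 genes, as a description of libraries that fall into 6 groups. For Dnmt1 these were Eif3a (r = 0.957, Spearman's rho = 0.937), Dek (0.952 and 0.939) and Mki67 (0.9499 and 0.874). For Uhrf1 they were Agtpbp1 (0.887 and 0.897), Peli2 (0.851 and 0.855) and Tcf24 (0.846 and 0.930). Dnmt3b had Ppp1r13b (0.902 and 0.845), Igf1r (0.893 and 0.866) and Hip1 (0.891 and 0.863). Dnmt3a had Igtp (0.853 and 0.772), Shmt2 (0.833 and 0.830) and Sort1 (0.8289 and 0.808). For Dnmt3l, which is at 0 in most libraries, they were Tmem232 (0.965 and 0.909), En1 (0.945 and 0.715) and Dpep3 (0.943 and 0.902). After removal of group means, 1 of these 15 genes, Eif3a, was again among the 3 nearest. Among the members, Dnmt3b and Uhrf1 had the highest r (0.781, rho = 0.801), and 0.550 (rho = 0.590) after removal of group means. Dnmt1 and Dnmt3a had an r of -0.657 (rho = -0.482), and -0.349 (rho = -0.0220) after that removal.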

How the data were processed

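RNA of sorted mouse PGCs was sequenced in bulk (E11.5 and E13.5, Ovation RNA-seq System V2) and in single cells (E12.5, Smart-seq2), per the labels' protocols. The authors deposited 5 tables of read counts per gene. HISAT2, edgeR and mm9 are named in the submitters' processing notes, without versions. Counter, annotation and strand setting were not stated in the sources used here, so reads of overlapping genes cannot be told apart. The bisulfite libraries were not analysed here.

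From the deposited counts, edgeR 4.0.16 (R 4.3.3, limma 3.58.1) gave TMM-scaled CPM and quasi-likelihood F tests over all genes that pass filterByExpr, with Benjamini-Hochberg adjustment and a threshold of 0.05. Cells with at least 50000 counts and 1500 genes were kept (127 of 192; the 65 left out had a median of 1717 counts) and summed per embryo, and all 8 embryos shared the estimate of the spread. The groups of E12.5 follow the sample titles. Stages and sexes were compared over joined tables. A gene counted as present in a cell from 10 CPM, with exact Clopper-Pearson intervals, and where a group had no count its floor was 3 counts. The fits were tested on simulated data with the same spread for every gene and changes placed only in genes above a set level. That does not show their error rates at the spread of these libraries or for genes with few counts. Python 3.11.15, pandas 2.3.3 and scipy 1.17.1 made the summaries.

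The 5 genes and the lists were chosen with earlier results of these data known. Named beside the 5 genes were Eed, up to 3 called genes per list and direction with the smallest adjusted p, and for likeness the 3 genes with the highest r. Cdca7l, Dmap1 and 2810417H13Rik fall under this rule. Cell type markers were named apart from it, to show what a marker sum was made of. No 2 libraries of a group agreed within sampling noise. Alternatives were DESeq2 1.42.0, RLE factors, no low-count filter, each library left out, a replicate block, stricter cells, total-count CPM, presence at 1 CPM and thinned cells.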

Additional observations from a re-analysis of the deposited data

Results flagged for a closer look

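The Uhrf1 level of E11.5 XY Control replicate 4, 10.6 CPM, lay far below the other 3 Controls of that group, which were at 23.04 to 23.6 CPM. Its gap to the nearest of them was 0.958 of the range of the group, above the Dixon limit for 4 samples. Chance gives a gap above that limit in about 1 in 20 groups, and 17 groups were searched, so about 1 gap above the limit is what chance gives. How often chance gives a gap as large as 0.958 was not computed. Without this library the Uhrf1 log2 fold change of ECKO over Control was 1.18 (edgeR adjusted p = 0.0764), against 1.38 with it. Its part in the call was not tested further.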

How the results depend on the processing

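Genes called in all, with edgeR, with DESeq2, with no low-count filter and, as a range, with each library left out, were 266, 771, 457 and 64 to 333 for E11.5 XY, 19, 315, 217 and 0 to 26 for E11.5 XX, and 604, 1696, 1268 and 94 to 2141 for E13.5 XY. At E12.5 they were 3, 910, 566 and 46 to 241 in XX, 1, 327, 150 and 3 to 53 in XY, and 0, 135, 84 and 0 to 37 for the XX minus XY difference. For the stage difference of the ECKO effect they were 173, 831, 306 and 30 to 1267. The E11.5 sex difference of the effect gave 0 with edgeR, 1 with DESeq2 and 0 to 1 with a library left out, and E11.5 Controls of XX against XY gave 42, 169 and 65 with the first 3 settings. The cause was not tested.

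Of the 5 genes, those called higher with a library left out were 0 to 2 for E11.5 XY and 0 to 3 for E13.5 XY, and those called lower in E13.5 XY were 1 with DESeq2, 1 with no filter and 0 to 1 with a library left out. At E12.5, DESeq2 and the fit with no filter each called 2 higher in XX and 1 in XY, and leaving out a library 0 to 2 and 0 to 1. Between stages, leaving out a library gave 1 to 4 higher and 0 to 1 lower in ECKO, and 0 to 1 lower in Controls, where DESeq2 called 1 lower. For the stage difference of the effect DESeq2 called 1 higher, and leaving out a library gave 0 to 1 higher and 0 to 1 lower.

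Log2 fold changes that turned sign were small or had 2 embryos a group. Dnmt1 between stages in ECKO was 0.038 with DESeq2, 0.038 with RLE factors, 0.021 with no filter and -0.75 to 0.27 with a library left out. With a library left out, Dnmt1 was at -0.20 to 0.020 in E11.5 XY and at -0.049 to 0.16 for the E11.5 sex difference, and Dnmt3a at -1.46 to 0.85 in E12.5 XY. The E12.5 sex differences were -0.66 to 0.18 for Dnmt1, -0.46 to 1.87 for Dnmt3a and -0.66 to 1.92 for Uhrf1.

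Replicate numbers did not pair the libraries (correlations of deviations from -0.146 to 0.168). With the number as a block, the genes called were 151 in E11.5 XY, 37 in E11.5 XX, 68 in E13.5 XY and 46 for the stage difference, and the 5 genes had 1 higher call for E11.5 XY and 0 for E13.5 XY. No block was fitted at E12.5, where a number does not tie embryos together.

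Depth limits the E11.5 XX set most, with 415291 counts in its shallowest library and 2 Dnmt3b counts there. With 2 embryos a group at E12.5, edgeR's calls depend on the shared spread. Single-cell intervals cover counting error only, and Dnmt3l rests on few counts at every stage.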
